A study of Danio rerio with 6 samples.

Results

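The hox genes of paralog group 5 were followed in sorted zebrafish hindbrain cells after retinoic acid (RA) treatment. They are hoxa5a, hoxb5a, hoxb5b and hoxc5a, and they were taken by name from the 32520 genes in the count tables, where all 4 were present and all 4 passed the filter on low counts. Embryos carried the transgene Tg(isl1:Kaede), a fluorescent reporter under isl1 control, and isl1 is active in cranial motor neurons and also in sensory neurons. Both groups also received 0.2 mM PTU, an inhibitor of pigment formation. From 24 hours post fertilization (hpf) the RA group received 50 nM RA in DMSO and the control group DMSO alone, and both were collected at 38 hpf. Live Kaede-positive cells of the dissected posterior hindbrain were sorted, 4500 to 10000 per library, and sequenced in 3 libraries per group (DMSO replicates 1, 4 and 10, RA replicates 6, 9 and 12). The number of embryos behind a library is not given in the sources used here. P-values therefore measure the spread between these libraries, which may be partly technical. The submitters name the cells vagus motor neurons, but the sort took every Kaede-positive cell of the piece.

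Hox genes encode homeodomain transcription factors and lie in clusters, in the order of their paralog numbers. Genes with low numbers begin their expression far forward in the hindbrain, and those of group 5 begin near its posterior end. In zebrafish, group 5 genes mark the posterior vagus motor neurons, and forced hox5 expression redirects vagal axons to more posterior pharyngeal arches. In the mouse, Hoxa5 and Hoxc5 are needed by phrenic motor neurons. RA is a vitamin A derivative that binds nuclear receptors and switches on hox genes, and added RA is known to shift hox expression forward. The libraries were bulk samples and held no position within the vagus nucleus, so where in the nucleus the sorted cells lay could not be checked.

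The members sit in 4 hox clusters on the forward strand, each with 2 exons (Ensembl release 95 annotation, GRCz11). Gene hoxb5a (ENSDARG00000013057) lies on chromosome 3 from 23707691 to 23710095, and hoxb5b (ENSDARG00000054030) on chromosome 12 from 27129659 to 27131735. They are the teleost duplicates of the tetrapod Hoxb5 gene. Gene hoxc5a (ENSDARG00000070340) lies on chromosome 23 from 36118738 to 36120511, and hoxa5a (ENSDARG00000102501) on chromosome 19 from 19759577 to 19760971.

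Reads that touch exons of more than 1 gene were not counted, so shared exon bases decide which counts are incomplete. From first to last base, hoxa5a overlaps 4 other annotated genes, hoxb5a 2, hoxc5a 2 and hoxb5b none, but overlap of exons was found for hoxa5a alone. Genes hoxb5a, hoxb5b and hoxc5a shared no exon base with any other gene on either strand. Their nearest foreign exons were those of hoxb4a at 744 bases, hoxb6b at 891 bases and hoxc3a at 1547 bases. In hoxa5a, 269 of 888 exon bases (30.3%) also belong to an exon of hoxa3a on the same strand. They lie at 19760636 to 19760904, in exon 2, and make up 80.1% of its 336 bases. Of the 619 bases that hoxa5a shares with no gene, 552 form exon 1, and its level per length of exon is a lower estimate.

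**Figure D1:**
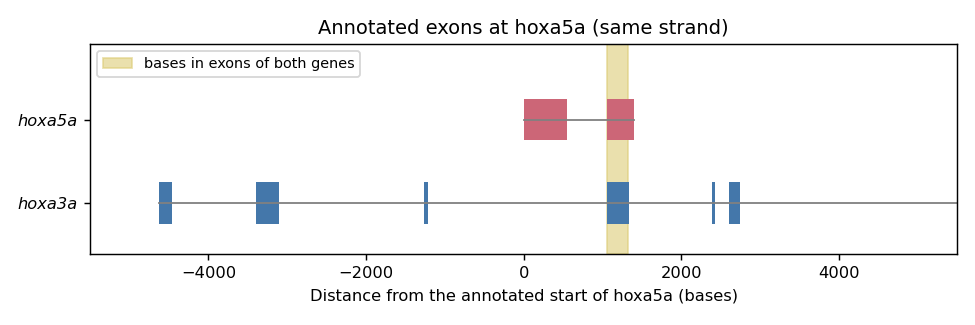
Annotated exons (boxes) of hoxa5a and hoxa3a against the distance in bases from the annotated start of hoxa5a; lines are the spans of the genes, and that of hoxa3a runs on past the right edge. The shaded 269 bases are exonic in both genes, and fragments there were not counted for either.

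All 4 genes rose with RA, between 3.11-fold (hoxa5a) and 6.82-fold (hoxb5a). For each, the lowest of the 3 RA values exceeded the highest of the 3 DMSO values. Over all 17270 tested genes, edgeR called 0.799% at an adjusted p of 0.05, of which the genes higher in RA were 0.446% of those tested, and 7.78% were higher in RA without overlap between the groups. More cells that express a gene and more RNA per cell cannot be told apart in bulk libraries.

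Gene hoxb5b was the most abundant. It is known in zebrafish as an RA-responsive gene of the forelimb field. It stood at 696.6, 558.4 and 784.8 CPM (counts scaled to a common, TMM-adjusted library size) in DMSO replicates 1, 4 and 10, and at 3595, 2289 and 2892 CPM in RA replicates 6, 9 and 12. The lowest RA library was 2.92 times the highest DMSO library. The means were 680.0 ± 114.1 and 2925 ± 653.7 CPM (SD, n = 3), and the log2 fold change was 2.11 (SE 0.20, 95% interval of the fold 3.15 to 5.88, edgeR adjusted p 0.00611).

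Its duplicate hoxb5a changed most. It stood at 260.4, 160.7 and 182.9 CPM in DMSO and at 1828, 871.5 and 1420 CPM in RA, in the same order of replicates. RA replicate 6 was 2.098 times RA replicate 9, the widest spread among the members within RA, yet replicate 9 was still 3.35 times the highest DMSO library. The log2 fold change was 2.77 (SE 0.30, 95% interval of the fold 4.26 to 10.9, edgeR adjusted p 0.00816).

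Genes hoxc5a and hoxa5a, whose mouse counterparts act in phrenic motor neurons, stood at lower CPM, which is not adjusted for gene length, and changed less. Gene hoxc5a stood at 131.3, 74.7 and 89.3 CPM in DMSO and at 366.2, 290.1 and 277.2 CPM in RA. Gene hoxa5a stood at 109.3, 71.6 and 90.6 CPM in DMSO and at 358.7, 237.4 and 247.5 CPM in RA. Here the groups lay closer together, the lowest RA library being 2.11 (hoxc5a) and 2.17 (hoxa5a) times the highest DMSO library. The log2 fold change of hoxc5a was 1.66 (SE 0.22, 95% interval of the fold 2.22 to 4.49, edgeR adjusted p 0.0187). That of hoxa5a was 1.64 (SE 0.21, 95% interval of the fold 2.21 to 4.36, edgeR adjusted p 0.0176).

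**Figure D2:**
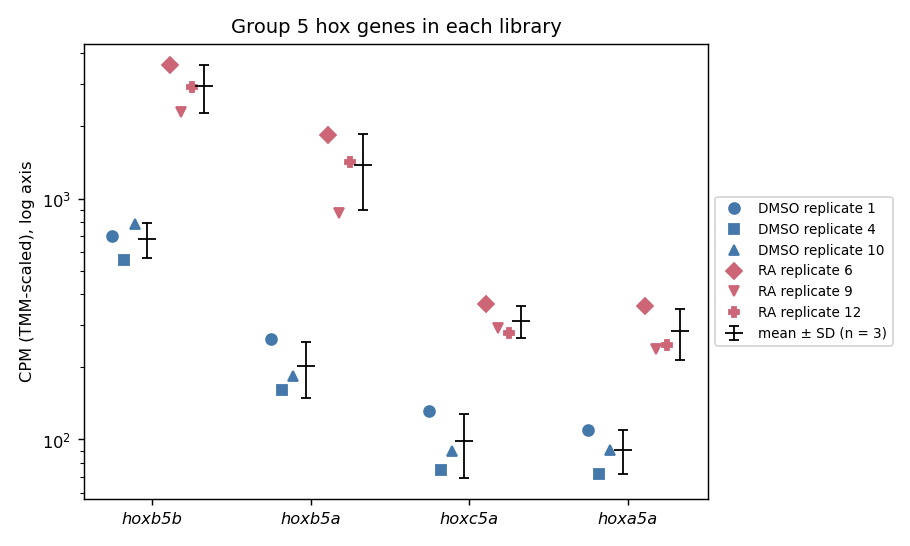
CPM of the 4 genes in each library on a log axis, with the mean ± SD of 3 libraries per group beside the points. The RA libraries lie above the DMSO libraries for all 4 genes, and RA replicate 6 is the highest for each.

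The libraries kept nearly the same order across the members. RA replicate 6 was the highest RA library for all 4, and replicate 9 the lowest for hoxb5b, hoxb5a and hoxa5a, while for hoxc5a replicate 12 was the lowest. DMSO replicate 4 was the lowest DMSO library for all 4. The RA-degrading enzyme gene cyp26a1 had the RA order of hoxb5b, hoxb5a and hoxa5a, at 3188 CPM in replicate 6, 1112 CPM in replicate 12 and 423.5 CPM in replicate 9. Genes hoxa3a and hoxb4a had the RA order of hoxc5a. The share of all genes with either order was not counted. Counts ran from 1698 (hoxa5a, DMSO replicate 4) to 57744 (hoxb5b, RA replicate 6). Counting error alone was then at most 2.43% of a value, against a spread between libraries of 15.5% to 35.0% of the group mean.

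Leaving out a DMSO library ended most of these calls, although no direction changed. Gene hoxb5b lost its call without DMSO replicate 1 or 4 (edgeR adjusted p 0.063 and 0.0594). Gene hoxb5a lost it without DMSO replicate 1, 4 or 10 (edgeR adjusted p 0.059, 0.067 and 0.0687), and so did hoxa5a (0.0738, 0.097 and 0.116). Gene hoxc5a lost it without DMSO replicate 4 or 10 or RA replicate 12 (edgeR adjusted p 0.0934, 0.124 and 0.0509). Among all genes such fits called 10, 9 and 18 genes without DMSO replicates 1, 4 and 10, against 138 with all 6 libraries. The log2 fold changes themselves stayed between 1.93 and 2.25 for hoxb5b, between 2.51 and 3.01 for hoxb5a, between 1.49 and 1.92 for hoxc5a and between 1.42 and 1.79 for hoxa5a. Without RA replicate 9, which correlated least with the other RA libraries (0.934 and 0.940 across genes), they were 2.25, 3.01, 1.71 and 1.74, and all 4 calls held (edgeR adjusted p 0.00197 to 0.0244).

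**Figure D3:**
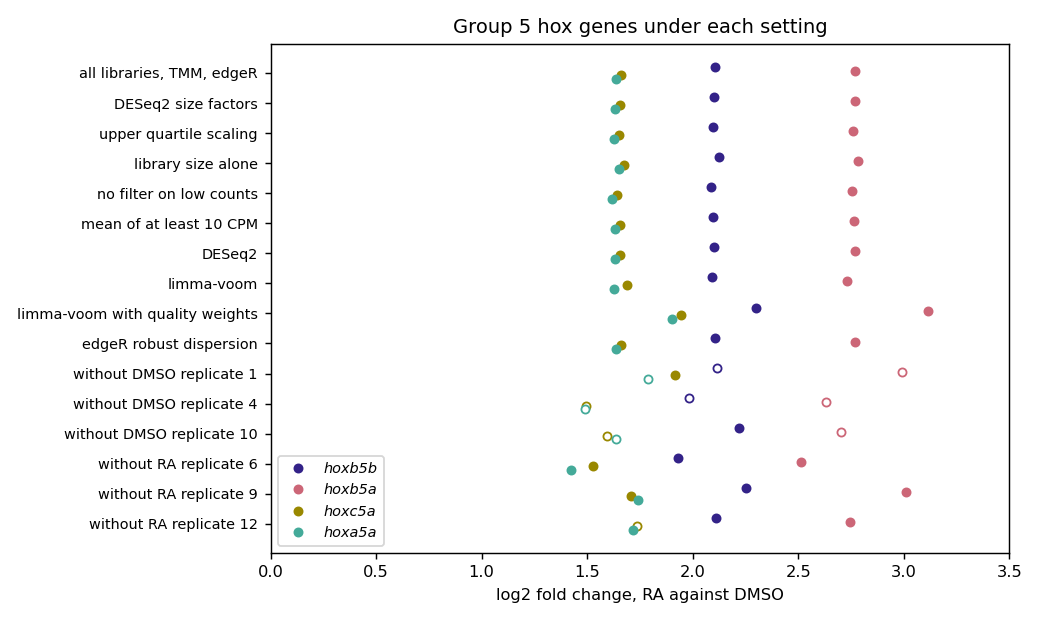
Log2 fold change of the 4 genes, RA against DMSO, with all libraries and under each of 15 alternatives; filled points passed an adjusted p of 0.05 and open points did not. The points of each gene stay well above 0, and open points occur only where a library was left out.

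Per length of exon, the members fell into a clear leader and 3 genes of like level in DMSO. Gene hoxb5b held 418.2 ± 70.2 CPM per kb, and its lowest DMSO library (343.4) was above the highest of any other member (145.5, hoxb5a). Genes hoxb5a, hoxc5a and hoxa5a held 112.5 ± 29.3, 103.0 ± 30.7 and 102.0 ± 21.2 CPM per kb (SD, n = 3), with ranges that overlap. Among 17270 tested genes in DMSO, hoxb5b ranked 110 by this measure, and the others ranked 700 (hoxb5a), 775 (hoxc5a) and 786 (hoxa5a).

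In RA the order spread out. Gene hoxb5b reached 1799 ± 402.0 CPM per kb and rank 8 of all tested genes, and hoxb5a reached 767.2 ± 268.2 and rank 44. The ranges of these genes did not overlap (1408 to 2211 and 486.9 to 1021). Genes hoxc5a and hoxa5a, at 325.5 ± 50.3 and 316.7 ± 75.8 CPM per kb, overlapped each other and lay below every RA value of hoxb5a. Per length of exon shared with no other gene, hoxa5a came to 146.2 ± 30.4 CPM per kb in DMSO and 454.3 ± 108.7 in RA. On that scale its RA range (383.6 to 579.4) lay above that of hoxc5a (290.0 to 383.1) by less than 1 CPM per kb and overlapped that of hoxb5a.

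The group total rose from 735.6 ± 127.2 to 3209 ± 779.1 CPM per kb (SD, n = 3). Of this total hoxb5b made up 57.1% ± 5.32 in DMSO and 56.2% ± 1.096 in RA. The share of hoxb5a went from 15.2% ± 2.17 to 23.5% ± 3.23, and its lowest RA share (19.7%, replicate 9) was above its highest DMSO share (17.4%, replicate 1). The shares of hoxa5a and hoxc5a went from 13.8% ± 0.853 to 9.92% ± 0.991 and from 13.9% ± 2.32 to 10.4% ± 1.70. Those of hoxa5a did not overlap between groups, and those of hoxc5a did. These shares use the whole exon length, which understates hoxa5a. Per length of exon shared with no other gene, hoxa5a made up 18.7% ± 1.09 in DMSO and 13.6% ± 1.31 in RA. On that scale hoxb5b made up 53.9% ± 5.20 in DMSO and 53.9% ± 1.05 in RA. Of the CPM per kb of all 39 tested hox genes, group 5 held 29.7% to 32.4% in DMSO and 32.0% to 38.0% in RA.

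**Figure D4:**
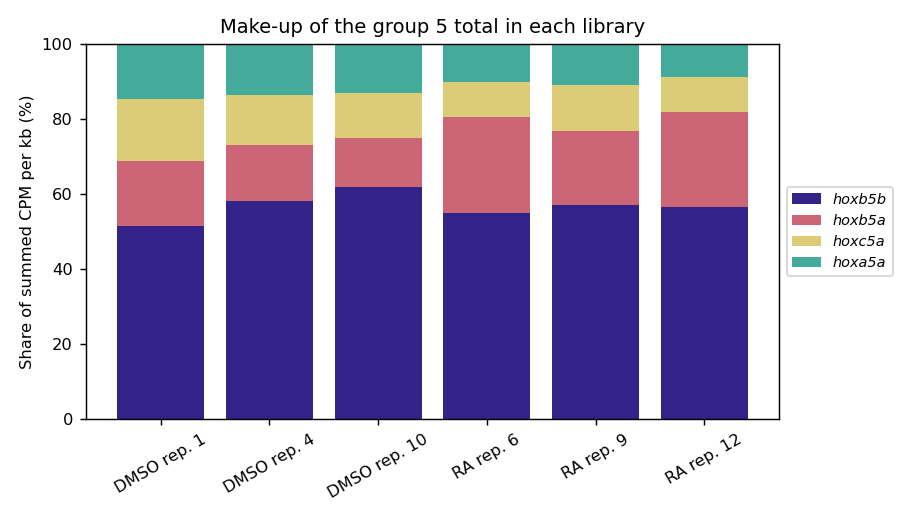
Share of each member in the summed CPM per kb of group 5, by library, over the whole exon length of each gene. Gene hoxb5b makes up 51.4% to 61.9% of every bar, and the hoxb5a part is larger in the 3 RA libraries (19.7% to 25.4%) than in the 3 DMSO libraries (13.1% to 17.4%).

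Ratios of counts within a library, which do not depend on scaling, were taken to describe how far the changes of the members differed. Pairs that share a gene are not independent. All 6 pairs were compared by a two-sided exact permutation test over 20 splits, with p-values adjusted over the 6 pairs. With 3 libraries against 3 the smallest p is 0.1, so no pair could pass 0.05. The ratio of hoxb5a to hoxb5b was 0.374, 0.288 and 0.233 in DMSO replicates 1, 4 and 10, and 0.509, 0.381 and 0.491 in RA replicates 6, 9 and 12. Its groups were separated by a narrow gap, and its factor between the groups was 1.56 (exact permutation p 0.1, adjusted 0.15).

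The largest shifts were those of hoxb5a against hoxa5a and hoxc5a. Its ratio to hoxa5a lay at 2.02 to 2.38 in DMSO and 3.67 to 5.74 in RA, a factor of 2.15. Its ratio to hoxc5a lay at 1.98 to 2.15 and 3.00 to 5.12, a factor of 2.06. Neither pair of groups overlapped, and each had an exact permutation p of 0.1 (adjusted 0.15). The ratio of hoxb5b to hoxa5a shifted by a factor of 1.38 without overlap (exact permutation p 0.1, adjusted 0.15), and that of hoxb5b to hoxc5a by 1.32 with overlap (exact permutation p 0.2, adjusted 0.24). Genes hoxc5a and hoxa5a kept the most even ratio. It was 1.201, 1.04 and 0.985 in DMSO and 1.02, 1.22 and 1.12 in RA, a factor of 1.04 (exact permutation p 0.7, adjusted 0.7).

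Each member was set beside the other hox genes of its cluster. Of the 21 other hox genes tested in these 4 clusters, all had a positive log2 fold change (hoxa9a and hoxc9a, neither called, turned negative under some alternatives) and 13 were called higher, with a median of 1.74, where 0.446% of all tested genes were called higher and the median of all was 0.02. In the 3 clusters that hold no group 5 gene, 14 hox genes were tested, 4 were positive and none was called by edgeR, DESeq2 or limma-voom, with a median of -0.23. Of these 14, 5 had an unadjusted p under 0.05 in edgeR and all 5 were lower (4.94% of all tested genes were lower at that level and 5.3% higher). Those clusters are represented here mostly by groups 9 to 13, so cluster and paralog number are largely confounded, and their parts were not tested. Their 4 tested genes below group 9 were hoxa2b, hoxd3a, hoxd4a and hoxc6b, with log2 fold changes of 0.12 (SE 0.39), -0.18 (SE 0.20), 0.13 (SE 0.30) and 0.48 (SE 0.22). The 3 other tested genes of group 6, all in clusters of the members, were called higher at 1.15 (hoxc6a), 2.42 (hoxb6b) and 3.24 (hoxb6a), and the difference from hoxc6b was not tested.

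On chromosome 3 the fold change of hoxb5a lay above that of hoxb4a and below that of hoxb6a. Lower paralog numbers had log2 fold changes of 1.72 (hoxb1a), 0.48 (hoxb2a) and 0.95 (hoxb3a), none called by edgeR. Higher ones had 2.70 (hoxb7a), 4.34 (hoxb8a), 1.99 (hoxb9a) and 1.74 (hoxb10a), all but hoxb10a called. With 1 library left out, hoxb7a, hoxb8a and hoxb9a were called in 1, 3 and 2 of 6 fits. Gene hoxb4a, whose exons begin 744 bases behind those of hoxb5a, went up from 237.5 ± 29.99 CPM to 506.6 ± 111.0 CPM (log2 difference 1.09, SE 0.18, adjusted p 0.0368 by edgeR). On the other side, hoxb6a went up from 74.2 ± 7.59 CPM to 703.3 ± 309.4 CPM (log2 difference 3.24, SE 0.34, adjusted p 0.00796 by edgeR). With 1 library left out, hoxb4a was called in 1 of 6 fits and hoxb6a in 3. The count ratio of hoxb5a to hoxb4a was 0.982, 0.781 and 0.757 in DMSO and 2.88, 1.91 and 3.31 in RA. That of hoxb5a to hoxb6a was 3.16, 2.38 and 2.52 in DMSO and 1.92, 2.44 and 1.78 in RA, with overlap. Genes hoxb4a, hoxb5a and hoxb6a share no exon base with another gene.

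These ratios were 2 of 8 taken between a member and a cluster neighbour, chosen after the fold changes were seen and adjusted over the 8. Of the 8, 5 did not overlap between the groups, a count that the choice may favour and that has no reference over other gene pairs. The ratio of hoxb5a to hoxb4a had an exact permutation p of 0.1 (adjusted 0.16) and that of hoxb5a to hoxb6a 0.2 (adjusted 0.267). On chromosome 23 the ratio of hoxc5a to hoxc4a went from 0.317 to 0.379 in DMSO to 0.676 to 0.877 in RA, a factor of 2.23 (exact permutation p 0.1, adjusted 0.16). Gene hoxc4a was at 0.52 (SE 0.17) and did not pass (edgeR adjusted p 0.287). Its neighbour on the other side, hoxc6a, rose by 1.15 (SE 0.19, edgeR adjusted p 0.0428), and the ratio of hoxc5a to it shifted by a factor of 1.45 without overlap. With any 1 library left out hoxc6a missed 0.05 (edgeR adjusted p 0.0595 to 0.202). Other genes of this cluster had larger fold changes than hoxc5a, at 1.95 (hoxc1a), 2.32 (hoxc8a) and 2.57 (hoxc3a), all called higher. The ratio of hoxc5a to hoxc3a moved the opposite way, from 0.852 to 1.42 in DMSO to 0.458 to 0.813 in RA, a factor of 0.560 (exact permutation p 0.1, adjusted 0.16). The annotated span of hoxc3a, 36087219 to 36149371, contains hoxc9a, hoxc8a, hoxc6a, hoxc5a and hoxc4a. Of its 4159 exon bases, 141 are shared with si:dkey-81p22.11. Which of its exons gave the counts cannot be told from counts per gene.

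On chromosome 12, hoxb5b had the smallest fold change of the 4 tested genes, all of which rose. Gene hoxb6b was at 2.42 (SE 0.33), hoxb8b at 3.34 (SE 0.35) and hoxb1b at 3.503 (SE 0.31), with edgeR adjusted p-values of 0.0201, 0.00796 and 0.0053. With 1 library left out they were called in 2, 3 and 4 of 6 fits. The ratio of hoxb5b to hoxb6b overlapped between the groups (1.66 to 1.81 in DMSO, 1.196 to 2.07 in RA, exact permutation p 0.4, adjusted 0.4). On chromosome 19, hoxa5a and hoxa3a had close fold changes. The exons annotated to hoxa3a lie on both sides of hoxa5a, from -4627 to 20668 bases relative to its start. No gene was found under the name hoxa4a, so no group 4 neighbour could be read here. Whether counts of hoxa3a include other hox transcripts was not tested. Gene hoxa3a rose by 1.54 (SE 0.19, edgeR adjusted p 0.0134, called in 3 of 6 fits with a library left out), and the count ratio of hoxa5a to hoxa3a lay between 0.146 and 0.175 in all 6 libraries (exact permutation p 0.3, adjusted 0.343). Fragments in their shared exon bases were counted for neither gene, and what else the 2 genes share in this likeness was not tested.

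**Figure D5:**
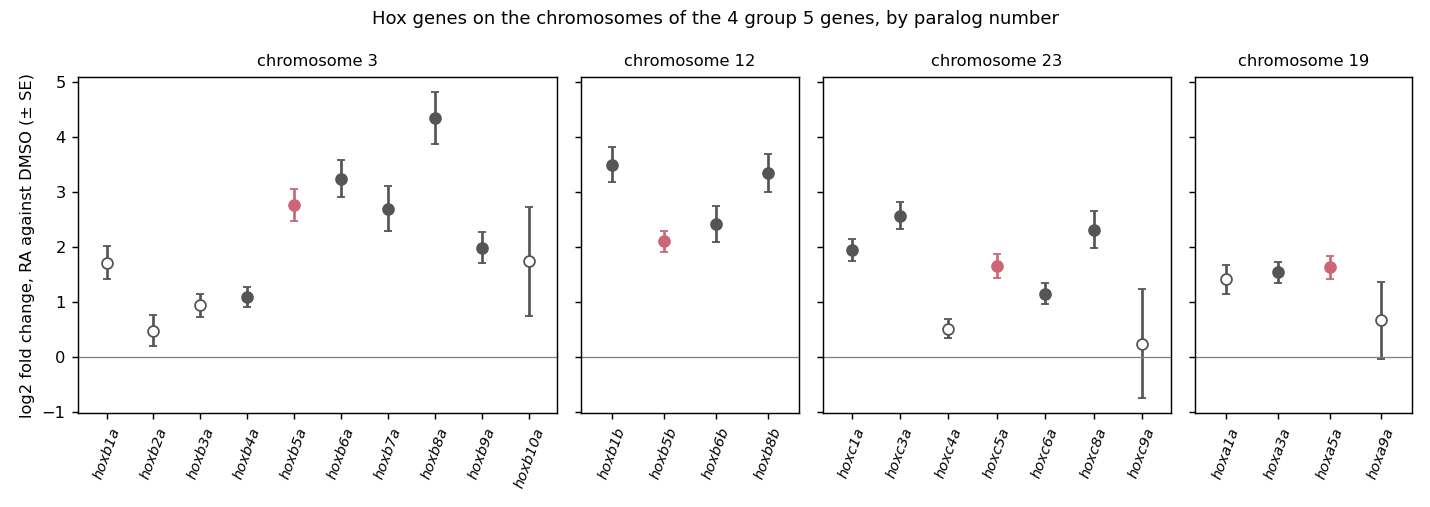
Log2 fold change ± SE, RA against DMSO (n = 3 per group), of the tested hox genes on the chromosomes of the 4 members, ordered by paralog number; filled points passed an edgeR adjusted p of 0.05 and the group 5 gene is in red. On chromosome 3 the value is 1.09 at hoxb4a, 2.77 at hoxb5a and largest, 4.34, at hoxb8a, and on chromosome 12 hoxb5b is the lowest of 4.

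Likeness of profile was measured as the root mean square difference of log2 CPM, each gene centred on its mean over the 6 libraries. It is a description over 6 libraries that largely reflects a like fold change. Among the members, hoxa5a and hoxc5a were closest (0.12) and hoxa5a and hoxb5a farthest apart (0.59), with hoxb5a and hoxb5b at 0.40. Outside the hox genes, pax5, a paired-box factor of the midbrain and hindbrain boundary, was nearest to hoxa5a (0.14), and the zinc finger gene tshz1 on the same chromosome was next (0.19). Gene pax5 was also the third nearest of hoxb5b (0.21) and of hoxc5a (0.22). Its level was low, 2.36 to 3.08 CPM in DMSO and 6.92 to 12.4 CPM in RA (adjusted p 0.0427 by edgeR, called in 1 of 6 fits with a library left out).

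The nearest to hoxb5a was si:dkey-11c5.14 (0.20), which overlaps 55 exon bases of hoxb8b on the opposite strand of chromosome 12, followed by copz2 on chromosome 3 (0.24) and grin3ba, a glutamate receptor subunit gene (0.27). The second nearest to hoxc5a was si:dkey-81p22.11 (0.21), a gene on the opposite strand whose introns span hoxc5a. Counting ignored strand, so antisense reads cannot be told apart in these genes. The nearest to hoxb5b were plp1b (0.13), at 0.717 to 6.35 CPM, and crabp2b, which encodes an RA-binding protein (0.20). In RA crabp2b was higher by 2.17 on the log2 scale (SE 0.19, adjusted p 0.0053 by edgeR). Gene ushbp1, the nearest to hoxc5a (0.15) and the third nearest to hoxa5a (0.20), stayed under 2 CPM in all libraries.

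By paralog number, 5 of 13 tested hox genes of groups 1 to 4 were called higher (median log2 fold change 1.09), 7 of 8 of groups 6 to 8 (median 2.56) and 1 of 14 of groups 9 to 13 (median -0.20), and none lower by edgeR. Over all tested genes 0.446% were called higher. Most tested genes of groups 9 to 13 lie in clusters without a group 5 gene. Those in clusters of the members were hoxb9a (1.99), hoxb10a (1.74), hoxa9a (0.67) and hoxc9a (0.25). Only hoxb9a was called, in 2 of 6 fits with a library left out, and the others were at low levels.

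Hox proteins bind DNA with cofactors of the Meis and Pbx families. Of 11 tested cofactor genes, 1 was called higher and none lower by edgeR, with a median log2 fold change of -0.06. DESeq2, which called 2.07% of all tested genes higher and 1.82% lower, called 1 of this list higher and 2 lower. At an unadjusted p under 0.05 in edgeR, 1 was higher and 3 were lower, against 5.3% and 4.94% of all tested genes. The most negative log2 fold changes were those of pbx3b (-0.84, SE 0.33), meis2b (-0.80, SE 0.21) and meis3 (-0.61, SE 0.17), and 5 of the 11 were positive. The gene called higher was meis1a, with means of 55.2 ± 15.1 (DMSO) and 186.9 ± 54.2 CPM (RA; log2 difference 1.76, SE 0.27, adjusted p 0.0291 by edgeR), a call held in 1 of 6 fits with a library left out. The most abundant, meis1b, had means of 1496 ± 211.5 (DMSO) and 1437 ± 196.2 CPM (RA). Of 16 genes of the RA response, all tested, 5 were called higher and none lower, with a median of 1.103 (DESeq2 called 10 higher and 2 lower). They were the RA-degrading cyp26a1, the retinaldehyde reductase genes dhrs3a and dhrs3b, crabp2b and the receptor gene rxrga. With 1 library left out, cyp26a1, dhrs3a and dhrs3b were each called in 3 of 6 fits, rxrga in 2 and crabp2b in 5. With robust dispersion in edgeR, cyp26a1 and dhrs3a did not pass (edgeR adjusted p 0.0573 and 0.0947). With limma-voom dhrs3a did not pass either (limma-voom adjusted p 0.148). Of 10 tested regulators of the anterior to posterior axis, hnf1ba was called higher (2.33 ± 0.813 to 10.3 ± 1.898 CPM, adjusted p 0.0362 by edgeR, held in none of 6 fits with a library left out).

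Markers were read for the sorted cells and for others the piece could hold. Over all tested genes, edgeR called 0.446% higher and 0.353% lower, and DESeq2 called 2.07% higher and 1.82% lower. At an unadjusted p under 0.05 in edgeR, 5.3% were higher and 4.94% lower. Of 10 tested genes of branchiomotor identity, 1 was called lower (tbx20, log2 difference -1.65, SE 0.13, adjusted p 0.00482 by edgeR) and none higher, while DESeq2 called 4 lower and 1 higher. The marker phox2bb, which is also in the neural crest list, had means of 2853 ± 333.3 (DMSO) and 2011 ± 116.6 CPM (RA). Those of isl1a were 1964 ± 379.3 and 1236 ± 241.5 CPM. Neither passed in edgeR (adjusted p 0.129 and 0.196), and DESeq2 called both lower (adjusted p 0.0144 and 0.0294). The summed level of this list was 6576 to 8747 CPM in DMSO and 4783 to 5901 CPM in RA. Its median log2 fold change was -0.13. Of its tested genes 3 were positive, slc18a3a (0.07), slc5a7a (0.11) and cldn19 (1.46), and none of these passed in edgeR. The others were negative, with chata at -0.06 (SE 0.23) and phox2a at -1.01 (SE 0.22). Means of phox2a were 1267 ± 245.4 (DMSO) and 627.1 ± 161.0 CPM (RA), which did not pass in the main test (edgeR adjusted p 0.0936). It was called in 3 of 9 alternatives that kept all libraries and in 1 of 6 fits with a library left out. Of 10 tested genes of the spinal motor neuron list, which shares isl2b with the cranial sensory neuron list, 1 was called higher (olig2, also a progenitor gene, 16.6 ± 6.67 to 77.5 ± 21.8 CPM, adjusted p 0.0285 by edgeR, held in 2 of 6 fits with a library left out). The spinal marker mnx1, with means of 4.73 ± 0.847 (DMSO) and 15.1 ± 5.55 CPM (RA), did not pass in the main test (edgeR adjusted p 0.0768). It passed with DESeq2 (adjusted p 0.000176), without the filter on low counts (edgeR adjusted p 0.0342) and without RA replicate 6 (edgeR adjusted p 0.033). DESeq2 called 3 genes of this list higher and none lower, and 4 were higher and 1 lower at an unadjusted p under 0.05 in edgeR. Of the 10, 6 were positive, and the median log2 fold change was 0.68. The negative genes were nkx2.9 (-0.69), isl2b (-0.59), lhx3 (-0.50) and isl2a (-0.09), none called by edgeR. The summed level of this spinal list was 332.2 to 486.4 CPM in DMSO and 464.5 to 527.5 CPM in RA, most of it from isl2a and lhx1a. No gene of either list was at 0 in all libraries. The part of such cells in the group 5 result was not tested.

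Group 5 genes are also active in vagal neural crest and in lateral mesoderm. Of 9 tested neural crest and enteric genes none was called by edgeR, 3 were lower at an unadjusted p under 0.05 and DESeq2 called 2 lower. Their summed level was 3005 to 3634 CPM in DMSO and 2261 to 2586 CPM in RA, most of it from phox2bb. The crest marker sox10 had means of 27.4 ± 4.64 and 26.4 ± 6.304 CPM. Gene foxd3 ranged over 73.7 to 78.9 CPM (DMSO) and 33.6 to 52.0 CPM (RA), which did not pass in edgeR (adjusted p 0.0901) and passed with DESeq2 (adjusted p 0.00112), with quality weights in limma-voom (adjusted p 0.0239) and without the filter (edgeR adjusted p 0.0472). None of 11 tested mesoderm and fin genes was called by edgeR or DESeq2, with 1 (meox1, higher) at an unadjusted p under 0.05 in edgeR, at summed levels of 149.8 to 311.8 CPM in DMSO and 202.3 to 298.4 CPM in RA. Of 13 progenitor and glial genes, gfap alone was called by edgeR (higher, log2 difference 1.001, SE 0.16, adjusted p 0.0352, held in 1 of 6 fits with a library left out), while DESeq2 called 2 higher and 2 were higher and 1 lower at an unadjusted p under 0.05, at summed levels of 3587 to 4020 and 2947 to 4693 CPM. None of 11 sensory neuron, 7 epidermal or 6 muscle genes tested was called by edgeR, and 5, 0 and 0 had an unadjusted p under 0.05 (1 sensory gene higher and 4 lower). DESeq2 called 1 sensory neuron gene lower and none of the others. The summed levels were 461.2 to 623.6 CPM in DMSO and 288.6 to 458.5 CPM in RA for the sensory genes, 790.1 to 952.3 and 438.0 to 1276 for the epidermal genes, and 27.6 to 498.7 and 41.1 to 1072 for the muscle genes. Of 2 endothelial genes tested kdrl was called lower (log2 difference -2.73, SE 0.37, adjusted p 0.0197 by edgeR), a call lost when any 1 DMSO library was left out. The other, cdh5, stood at 1.51, 0 and 0 CPM in DMSO and at 4.54, 0 and 1.97 CPM in RA and did not pass.

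Some mesoderm and muscle markers stood apart in RA replicate 6, the highest library for all 4 members. There the somite gene meox1 was at 92.2 CPM, against 4.91 and 19.9 CPM in RA replicates 9 and 12 and 3.51 to 8.35 CPM in DMSO. The muscle actin gene actc1b was at 743.7 CPM in RA replicate 6, against 15.9 and 20.3 CPM in the other RA libraries. In DMSO it was highest in replicate 4 (328.9 CPM), the lowest library for all 4 members. The muscle genes myl1, tnnt3a and ckma also stood apart in RA replicate 6, and myod1 and myog did not. Of the other mesoderm genes, tbx1 and twist1b were highest in RA replicate 6 among the RA libraries. By contrast tcf21, prrx1a, prrx1b and hand2 were lowest there, and the rest lay between. RA replicate 9 stood apart for other markers. Its krt4 level was 541.8 CPM, against 117.6 and 13.5 CPM in RA replicates 6 and 12 and 21.1 to 217 CPM in DMSO. Among the RA libraries krt8, tp63, epcam and cldni were also highest in replicate 9, and krt5 and krt18a.1 in replicate 6. All tested progenitor and glial genes were highest in RA replicate 9 among the RA libraries, with her4.2 at 217.8 CPM against 106.1 and 75.6 CPM. Without RA replicate 6 the members stayed called, at log2 fold changes of 1.93 (hoxb5b), 2.51 (hoxb5a), 1.53 (hoxc5a) and 1.42 (hoxa5a), with edgeR adjusted p-values of 0.00803 to 0.0445. The part of other cell types in the remaining difference was not tested.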

How the data were processed

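The authors deposited 1 table of unnormalized fragment counts for each library. Per the file headers, featureCounts 1.6.0 counted read pairs, ignoring strand, on Ensembl release 95 of GRCz11; the submitters' processing notes also name bcl2fastq 1.8.4, STAR 2.5.2a and Subread 1.5.0. Gene lengths are the deposited exon lengths. Library totals were 15971653 to 23411427. Symbols came from a table naming 29201 of the 32520 genes; 10946 symbols given there in capitals were replaced by the RefSeq name on the same chromosome (GRCz12tu, names alone). Tests used edgeR 4.0.16 in R 4.3.3 (filterByExpr, TMM, quasi-likelihood fit with treatment alone), two-sided, with Benjamini-Hochberg adjustment over 17270 genes at 0.05. SE is the fold change over the square root of F. Likeness used log2 CPM with a prior count of 2. Alternatives included DESeq2 1.42.0 and limma-voom 3.58.1. The scripts were tested on simulated data. Libraries of the same group differed by far more than counting noise (chi-square over degrees of freedom 16.6 to 75.4). Named genes are the members, genes sharing exon bases, hox genes of the same clusters, the 3 nearest profiles of each member, and list genes that passed or define a cell type. Members and lists were chosen with earlier results of these data known.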

Additional observations from a re-analysis of the deposited data

How the results depend on the processing

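Under the 9 alternatives that kept all 6 libraries, all 4 members stayed called higher, at log2 fold changes of 1.62 to 1.901 (hoxa5a), 2.73 to 3.12 (hoxb5a), 2.08 to 2.30 (hoxb5b) and 1.64 to 1.94 (hoxc5a). With 5 libraries they ranged from 1.42 to 1.79, 2.51 to 3.01, 1.93 to 2.25 and 1.49 to 1.92, with calls in 3, 3, 4 and 3 of 6 fits. The number of called genes, 138, was 276 with no filter, 671 with DESeq2, 394 with limma-voom quality weights and 9 to 325 with 5 libraries. Per unshared exon length hoxa5a moved to 146.2 and 454.3 CPM per kb in DMSO and RA. Of the genes beside the members that were followed across the alternatives, hoxa9a turned to -0.42 with quality weights. It ranged from -0.055 (without RA replicate 9) to 1.25 with 5 libraries. Gene hoxc9a turned to -0.39 with limma-voom, -2.05 with quality weights and -0.17 without DMSO replicate 1, and ranged from -0.91 (without RA replicate 9) to 0.79 with 5 libraries. Gene chata turned to 0.091 with quality weights and 0.093 without RA replicate 9, and ranged from -0.28 to 0.13 (without DMSO replicate 1) with 5 libraries. Gene sox10 turned to 0.073 without DMSO replicate 10 and ranged from -0.23 to 0.11 (without RA replicate 6). None of these 4 was called, and the cause was not tested. The ratio of hoxc5a to hoxa5a lay at -0.0044 to 0.14 (log2 difference) with 5 libraries, while those of the other pairs kept their sign, at 0.20 to 1.30. No paired analysis was made, because the groups share no replicate number. The labels do not say whether RA and DMSO libraries were collected together, so a shared collection day is unknown. Depth did not limit the members, whose lowest count was 1698.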
